A study of Mus musculus with 13 samples.

Results

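Histone cluster 1 on mouse chromosome 13 was examined in lists of ChIP-seq peaks from mouse embryonic stem cells (mESCs). Its members were taken by name, as every protein-coding gene of GENCODE vM1 on chromosome 13 whose symbol starts with Hist1h. This gave 55 genes of the 22367 protein-coding genes on chromosomes 1 to 19, X and Y. Of these, 54 lie in a cluster of 2.22 Mb from Hist1h2bl to Hist1h2aa (mm9, chr13:21807632-24026720), and Hist1h2al stands alone at chr13:51298057-51298434. The cluster was selected on its peaks, since those found in the FS2-AEBP2 list and in none of the other lists are dense there. All 5 lists enter that definition, so the counts of peaks are given as a description, with no test.

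In ChIP-seq the DNA bound to a protein, or wrapped around histones with a given mark, is recovered with an antibody and sequenced, and stretches with many fragments are called as peaks. The 5 lists come from wild-type mESCs of strain 129/1, grown in serum with LIF, and the labels name an XY line of that strain for all of them. Endogenous AEBP2 has 2 lists and H3K27me3 has 2 lists, 1 per replicate. FS2-AEBP2 is AEBP2 with an N-terminal Flag-StrepII tag, expressed from a plasmid, and has 1 list with no replicate. The study's methods name E14 cells for the tagged protein, and its ChIP differed from the ChIP of the endogenous proteins, with beads that had been blocked with albumin and yeast tRNA. The labels call the histone antibody H3K27 without a methylation state, the study calls the mark H3K27me3, and which H3K27me3 list is replicate 1 is uncertain. The lists hold 2884 FS2-AEBP2 peaks, 2877 and 6779 AEBP2 peaks, and 14112 and 9275 H3K27me3 peaks. They hold no reads, so depth is unknown, and a gene without a peak may still carry signal under the authors' threshold. SUZ12, the inputs and the AEBP2 mutant cells were not analysed here. At 12 check genes the lists were as follows. The pluripotency genes Pou5f1, Nanog, Sox2, Zfp42, Esrrb and Tdgf1 had no peak of any list within 1 kb of the start, and Esrrb was the only one with peaks in its body, in all 5 lists. Both H3K27me3 lists had a peak within 1 kb of the start of each of Gata4, Gata6, Pax6, Sox17, T and Hoxa9, lineage genes that are silent in mESCs.

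Histone cluster 1 encodes most of the replication-dependent histones of the mouse. Core histones H2A, H2B, H3 and H4 form the nucleosome, and linker histones H1 bind the DNA that enters and leaves it. The genes have no introns as a rule, are transcribed in S phase and make mRNAs that end in a stem-loop in place of a poly(A) tail. AEBP2 is an accessory subunit of PRC2, the Polycomb complex that methylates lysine 27 of histone H3, and in mESCs PRC2 sits mainly at CpG islands of developmental genes. The same stretch of chromosome 13 is also known for its many tRNA genes. These are transcribed by RNA polymerase III from promoters inside the gene, the A box and the B box, and TFIIIC binds the B box.

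The members form 6 H1, 14 H2A, 15 H2B, 9 H3 and 11 H4 genes, with annotated lengths from 312 to 37383 bp and a median of 519 bp. For 24 of them the annotated length is a multiple of 3, so the record may hold only the coding sequence. Members lying within 100 kb of each other were joined, which gave 5 blocks. The first, Hist1h2bl to Hist1h2br, holds 18 members in 124 kb, and the second, Hist1h2ah to Hist1h2bj, holds 5 in 10.6 kb. The third runs from Hist1h4h to Hist1h1a and holds 29 members in 235 kb. The fourth holds the testis histone genes Hist1h2ba and Hist1h2aa, and the fifth holds Hist1h2al, which RefSeq lists as a transcribed pseudogene. Gaps of 196 kb, 1485 kb and 167 kb separate the first 4 blocks.

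The start regions of the 4 members or pairs that the results turn on are shown here, because peaks of the AEBP2 lists lie within 1 kb of these starts. Only between Hist1h2bf and Hist1h2ad do they overlap the bases shown, and at the others they lie downstream of the start or farther upstream. Each is written 5′ to 3′ on the strand of the gene, from the mm9 genome, and capitals mark a TATA box with the letters TATAAA or a CCAAT box. The H1 box of linker histone promoters, AAACACA, is in capitals too, and all were looked for on either strand. The runs for Hist1h1b (chr13:21872495-21872744, minus strand), Hist1h1c (chr13:23830426-23830675, plus strand) and Hist1h4h (chr13:23622669-23622918, plus strand) are the 250 bases before the annotated start. The run for the divergent pair Hist1h2bf and Hist1h2ad (chr13:23666066-23666249, plus strand) is the whole 184 bases between their starts.
Hist1h1b: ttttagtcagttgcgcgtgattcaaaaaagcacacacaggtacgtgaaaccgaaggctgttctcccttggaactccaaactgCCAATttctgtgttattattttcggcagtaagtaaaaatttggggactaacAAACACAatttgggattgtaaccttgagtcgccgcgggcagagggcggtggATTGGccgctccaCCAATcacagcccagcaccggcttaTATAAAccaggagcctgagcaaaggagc
Hist1h1c: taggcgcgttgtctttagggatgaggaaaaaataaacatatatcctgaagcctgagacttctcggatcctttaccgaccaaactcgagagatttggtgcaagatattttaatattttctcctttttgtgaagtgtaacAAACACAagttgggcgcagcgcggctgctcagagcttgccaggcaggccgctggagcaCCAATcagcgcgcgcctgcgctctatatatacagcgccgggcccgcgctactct
Hist1h4h: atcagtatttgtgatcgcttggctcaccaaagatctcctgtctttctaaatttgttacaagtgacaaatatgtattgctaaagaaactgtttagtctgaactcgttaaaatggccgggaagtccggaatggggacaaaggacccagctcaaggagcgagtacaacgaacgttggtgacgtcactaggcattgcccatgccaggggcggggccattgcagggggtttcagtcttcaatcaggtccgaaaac
Hist1h2bf-Hist1h2ad: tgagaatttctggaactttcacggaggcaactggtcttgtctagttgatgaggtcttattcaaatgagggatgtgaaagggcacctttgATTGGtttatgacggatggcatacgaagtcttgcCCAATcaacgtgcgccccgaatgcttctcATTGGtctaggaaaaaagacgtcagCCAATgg
The sequence of Hist1h1b has all 3 kinds of box, that of Hist1h1c has a CCAAT box and an H1 box, and that between Hist1h2bf and Hist1h2ad has CCAAT boxes on both strands. That of Hist1h4h has none of these letters.

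The FS2-AEBP2 peaks with the 4 highest scores between the gene blocks are shown as well, since most FS2-AEBP2 peaks of the region lie there. They are peak 1 (chr13:23524821-23525037, minus strand, score 68), peak 2 (chr13:23558832-23559057, plus strand, score 63), peak 3 (chr13:23538599-23538823, minus strand, score 42) and peak 4 (chr13:23613677-23613864, plus strand, score 42). The whole called peak is written on the strand that carries the B box word GTTCGANNC, which is in capitals.
FS2-AEBP2 peak 1: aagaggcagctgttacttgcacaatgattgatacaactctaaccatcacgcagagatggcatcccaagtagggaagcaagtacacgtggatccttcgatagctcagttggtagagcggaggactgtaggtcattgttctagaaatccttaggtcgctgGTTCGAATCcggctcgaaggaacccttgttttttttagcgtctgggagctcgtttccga
FS2-AEBP2 peak 2: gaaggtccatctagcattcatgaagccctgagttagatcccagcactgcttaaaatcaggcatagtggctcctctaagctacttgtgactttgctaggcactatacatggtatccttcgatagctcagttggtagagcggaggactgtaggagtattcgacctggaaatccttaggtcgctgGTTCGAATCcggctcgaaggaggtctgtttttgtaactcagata
FS2-AEBP2 peak 3: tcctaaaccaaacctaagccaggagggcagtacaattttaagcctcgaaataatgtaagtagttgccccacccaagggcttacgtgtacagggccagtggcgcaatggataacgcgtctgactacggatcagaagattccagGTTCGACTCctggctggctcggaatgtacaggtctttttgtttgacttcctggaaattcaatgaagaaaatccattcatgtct
FS2-AEBP2 peak 4: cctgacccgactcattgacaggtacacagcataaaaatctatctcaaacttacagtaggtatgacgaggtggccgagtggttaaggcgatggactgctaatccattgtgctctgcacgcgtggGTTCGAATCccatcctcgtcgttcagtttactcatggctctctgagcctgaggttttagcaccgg
Each of the 4 peaks holds the word. The longest run of bases shared by peaks 1 and 2 is 40, against 7 to 11 for the other pairs.

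Few of the histone genes themselves had a peak, and for FS2-AEBP2 the share was close to that of all genes. A start-site window of 1 kb on either side of the annotated start held a peak of at least 1 list at 8 of 55 members, where 31.5% of all protein-coding genes had one. FS2-AEBP2 peaks lay in the windows of 3 members, or 5.45% (95% Wilson interval 1.87 to 14.9), against 6.53% of all genes. AEBP2 replicate 1 had a peak at 3 members, again 5.45% (1.87 to 14.9), against 9.08% of all genes. The intervals of these 2 lists take in the share of all genes. AEBP2 replicate 2 had a peak at 4 members, or 7.27% (2.86 to 17.3), against 22.3% of all genes. Peaks of both AEBP2 replicates lay at 2 members, with 8.44% of all genes having both. H3K27me3 peaks lay at 2 members in replicate 1 and at 2 in replicate 2, each 3.64% (1.00 to 12.3), against 17.0% and 17.7% of all genes. The intervals cover counting error only, and members that share a start region are not independent.

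**Figure D1:**
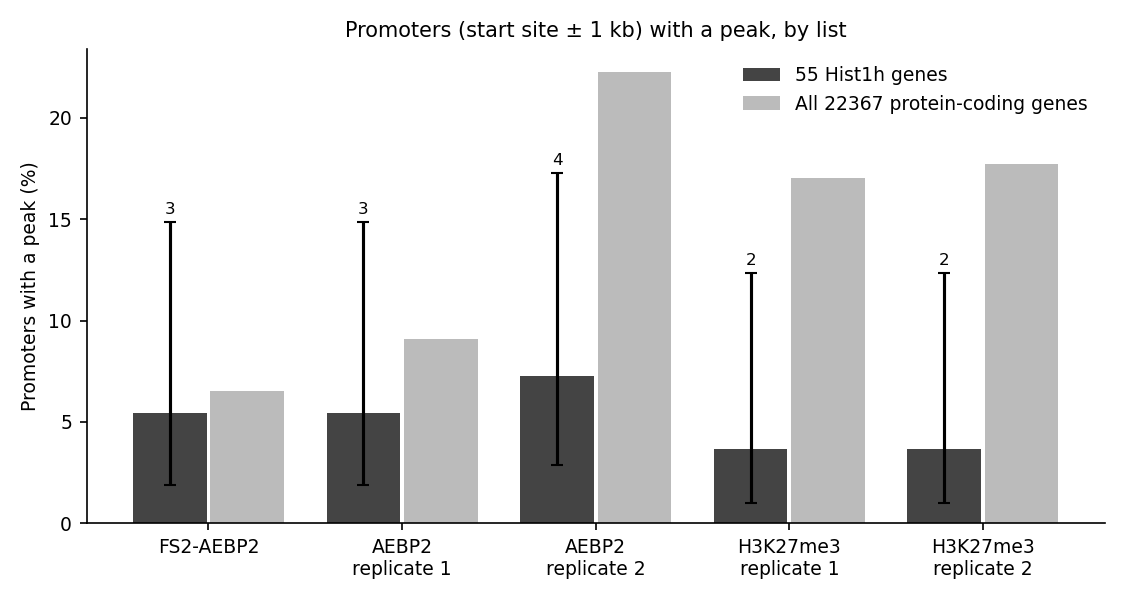
Percent of start-site windows (annotated start ± 1 kb) with a peak in each of the 5 lists, for the 55 Hist1h genes (dark bars, with 95% Wilson intervals and the number of genes above) and for all 22367 protein-coding genes (light bars). The dark bars stand for 2 to 4 genes each and are lower than the light bars in every list. For FS2-AEBP2 and AEBP2 replicate 1 the interval takes in the height of the light bar.

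Gene bodies gave a like picture. FS2-AEBP2 peaks overlapped 1 member (7.69% of all genes), AEBP2 peaks 2 members in each replicate (10.3% and 24.9% of all genes), and H3K27me3 peaks 1 member in each replicate (20.8% and 20.2% of all genes). PRC2 is known to sit at CpG islands, so the members were also set beside other genes with a CpG-island-like stretch near the start. A CpG-island-like stretch was found at 54 members (55.1% of all genes), the exception being the testis linker histone gene Hist1h1t, and 52 members had such a stretch and no H3K27me3 peak. Of these 52, 3 had an FS2-AEBP2 peak, 3 a peak of AEBP2 replicate 1 and 4 a peak of AEBP2 replicate 2. Among the 8802 protein-coding genes of the same kind, 1.68%, 6.85% and 27.6% had one. The share for FS2-AEBP2 was thus larger among the members, on 3 genes, and that for each AEBP2 replicate was smaller. The cluster was selected on FS2-AEBP2 peaks outside the other lists, H3K27me3 included. The larger FS2-AEBP2 share is therefore tied to that choice and is no independent result. None of the FS2-AEBP2 peaks at these 3 genes contained a start. A peak of any AEBP2 list lay at 6 of the 52 members and at 29.1% of such genes.

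Of the linker histone genes, 2 of 6 had a peak of at least 1 list (33.3%), about the 31.5% of all protein-coding genes. Hist1h1b (chr13:21871752-21872494, minus strand), which encodes H1.5, had an FS2-AEBP2 peak of 181 bp at chr13:21871492-21871672 with a score of 12. This peak began 822 bp downstream of the start and lay wholly past the gene, 79 bp beyond its 3′ end. An AEBP2 peak of replicate 2 (813 bp, chr13:21871446-21872258, score 3) covered it and reached into the gene, and replicate 1 had no peak there. Hist1h1c (chr13:23830676-23832235, plus strand), which encodes H1.2, had an FS2-AEBP2 peak of 644 bp at chr13:23831245-23831888 with a score of 11, inside the gene and 569 bp from its start. An AEBP2 peak of replicate 1 (823 bp, chr13:23830769-23831591, score 4) overlapped it, and replicate 2 had no peak there. In each case the tagged protein and 1 of the 2 AEBP2 replicates had a peak, and none of the peaks touched the start. The endogenous peak ranked low in its list by score, at 11.4% and 21.5%. A higher percent is a higher score, and tied scores take their mean rank. Hist1h1a, Hist1h1d, Hist1h1e and Hist1h1t had no peak.

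Of the H4 genes, 1 of 11 had a peak (9.09%, against the same 31.5%). Hist1h4h (chr13:23622919-23623388, plus strand), the first member of the third block, had an FS2-AEBP2 peak of 110 bp at chr13:23622196-23622305, which ended 614 bp upstream of the start. Its score of 5 ranked at 21.8% of the list. No other list had a peak there, which makes it the only one of the 269 FS2-AEBP2-only peaks of the genome that lay within 1 kb of a member. The others, Hist1h4a, Hist1h4b, Hist1h4c, Hist1h4d, Hist1h4f, Hist1h4i, Hist1h4j, Hist1h4k, Hist1h4m and Hist1h4n, had no peak.

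The only start in the cluster with a peak of both AEBP2 replicates was that of a divergent H2A and H2B pair. Hist1h2bf (chr13:23665605-23666065, minus strand) and Hist1h2ad (chr13:23666250-23666821, plus strand) share the 184 bases shown above. AEBP2 replicate 1 had a peak at chr13:23666069-23666314 with a score of 22, ranked at 93.9% of its list. AEBP2 replicate 2 had a peak of 655 bp at chr13:23666082-23666736 with a score of 12, ranked at 72.7% of its list. Both contain the start of Hist1h2ad and end short of that of Hist1h2bf, by 4 and 17 bp, and neither FS2-AEBP2 nor H3K27me3 had a peak there. The peak of replicate 2 also reaches into the window of the H3 gene Hist1h3d, 896 bp upstream of its start, so 3 members are counted for this 1 peak. In replicate 1 the peak ended 1318 bp from Hist1h3d, just outside the window.

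Divergent pairs, whose starts lie within 1 kb and point away from each other, took in 24 of the members in 12 pairs, 11 of them of an H2A with an H2B gene. Their starts were 168 to 693 bp apart, with a median of 229.5 bp. The pair of Hist1h2bf and Hist1h2ad was the only one with a peak of any list between its starts. The other H2A genes without a peak in their window were Hist1h2ab, Hist1h2ac, Hist1h2ae, Hist1h2af, Hist1h2ag, Hist1h2ah, Hist1h2ai, Hist1h2ak, Hist1h2al, Hist1h2an, Hist1h2ao and Hist1h2ap. The H2B genes without one were Hist1h2bb, Hist1h2bc, Hist1h2be, Hist1h2bg, Hist1h2bh, Hist1h2bj, Hist1h2bk, Hist1h2bl, Hist1h2bm, Hist1h2bn, Hist1h2bp, Hist1h2bq and Hist1h2br. Of the H3 genes, Hist1h3a, Hist1h3b, Hist1h3c, Hist1h3e, Hist1h3f, Hist1h3g, Hist1h3h and Hist1h3i had none, which leaves 47 members without a peak of any list.

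H3K27me3 was called at a single place among the members, the testis pair of the fourth block. Hist1h2ba (chr13:24025637-24026025, minus strand) and Hist1h2aa (chr13:24026331-24026720, plus strand) encode H2B and H2A variants of the male germ line. Replicate 1 had a peak of 206 bp at chr13:24026471-24026676 with a score of 5, and replicate 2 a peak of 1100 bp at chr13:24026513-24027612 with a score of 2. They begin 140 and 182 bp downstream of the start of Hist1h2aa, and 446 and 488 bp from the start of Hist1h2ba. The first lies wholly over the body of Hist1h2aa, while 208 bp of the second do and the rest runs past its 3′ end. The score in replicate 2 ranked at only 3.39% of that list. No AEBP2 or FS2-AEBP2 peak was called at the pair. Hist1h1t, the testis linker histone gene in the third block, had no peak.

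Most peaks of the region lay in the gaps between the gene blocks, which also make up most of its length. Of the 51 FS2-AEBP2 peaks from Hist1h2bl to Hist1h2aa, 3 lay within 1 kb of a member, 0 lay between members inside a block and 48 lay in the gaps between blocks. Over the 1848 kb of the gaps this is 26.0 peaks per Mb, against 18.3 within 1 kb of members, 1.24 on the rest of chromosome 13 and 1.06 on the other chromosomes. AEBP2 replicate 1 had 2 peaks at members, 0 elsewhere in the blocks and 7 in the gaps, or 3.79 per Mb of gap against 1.02 on the rest of the chromosome. AEBP2 replicate 2 had 2, 0 and 23, or 12.4 per Mb of gap against 2.14. H3K27me3 had 1, 0 and 7 in replicate 1, and 1, 1 and 9 in replicate 2, with 3.79 and 4.87 per Mb of gap against 4.65 and 3.30. Within 1 kb of members the 2 peaks of each AEBP2 replicate made 12.2 per Mb, and the 1 peak of each H3K27me3 replicate made 6.10. Per base, AEBP2 replicate 2 was thus about as dense near members as in the gaps. AEBP2 replicate 1 and H3K27me3 were denser near members, on 1 or 2 peaks a list. FS2-AEBP2-only peaks, on which the cluster was selected, stood at 13.5 per Mb in the gaps (25 peaks), 6.10 within 1 kb of members (1 peak) and 0.136 on the rest of the chromosome. Of the 4 other lists AEBP2 replicate 2 had the most peaks in the gaps.

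**Figure D2:**
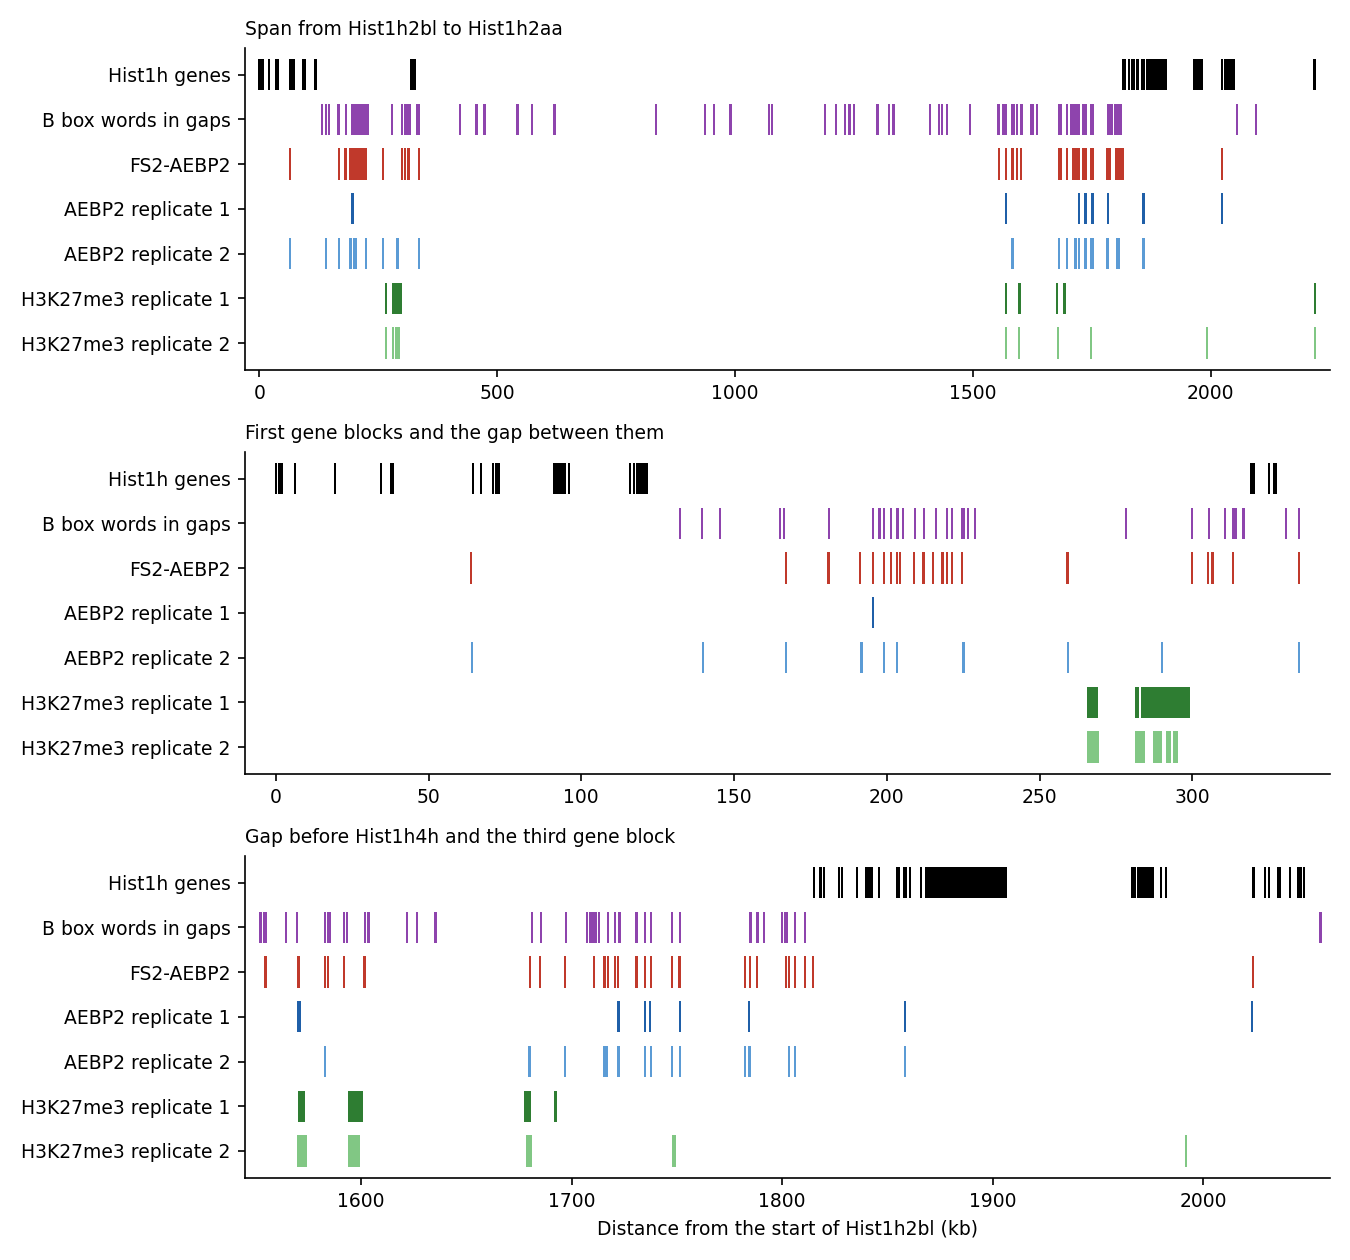
Positions of the Hist1h genes, of matches to the B box word in the gaps, and of the peaks of the 5 lists along the 2.22 Mb cluster (top), over the first 2 blocks and the gap between them (middle), and over the end of the next gap and the third block (bottom). The horizontal axis is the distance from the start of Hist1h2bl in kb, and marks are drawn at a minimum width. FS2-AEBP2 marks crowd in the gaps, between the blocks of genes, with 3 at the genes.

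The gaps were not alike. The first, between Hist1h2br and Hist1h2ah, had 20 FS2-AEBP2 peaks in 195.6 kb, beside 1 AEBP2 peak in replicate 1 and 8 in replicate 2. The second, between Hist1h2bj and Hist1h4h, had 28, with 6 and 15 AEBP2 peaks. All but 1 of these 28, which lay 7018 bp past Hist1h2bj, lay in its last part, and no list had a peak between the AEBP2 peak that ends at 22142789 and the FS2-AEBP2 peak that begins at 23362275, a stretch of vomeronasal receptor genes. The gap between Hist1h1a and Hist1h2ba, which holds the Slc17a phosphate transporter genes, had no peak of any list. Among the 48 neighbouring genes that lie between the first and the last member, no start-site window held an FS2-AEBP2 or AEBP2 peak, and H3K27me3 peaks lay at 2 in replicate 1 (Pom121l2 and Prss16) and at these and Btn1a1 in replicate 2. The FS2-AEBP2 and AEBP2 peaks in the gaps thus lay over 1 kb from every protein-coding start of the region.

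The FS2-AEBP2 peaks in the gaps were short and scored high. Their median length was 216 bp (111 to 1347 bp), against 893 bp in the whole list, and their median score was 17.5, with a median rank of 75.6%. Short length was not particular to the gaps among FS2-AEBP2-only peaks. Their medians were 188 bp in the gaps, 177 bp on the rest of chromosome 13 and 165 bp on the other chromosomes. AEBP2 peaks in the gaps were short too, with medians of 218 bp in replicate 1 and 330 bp in replicate 2, against 1193 and 855 bp in the whole lists, but their scores stood at 42.8% and 48.1% of their lists. H3K27me3 peaks in the gaps had medians of 3590 and 2922 bp, longer than the 2073 and 2244 bp of the whole lists. Peak 1 shown above ranked at 97.6% of the FS2-AEBP2 list by score with a length of only 217 bp.

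**Figure D3:**
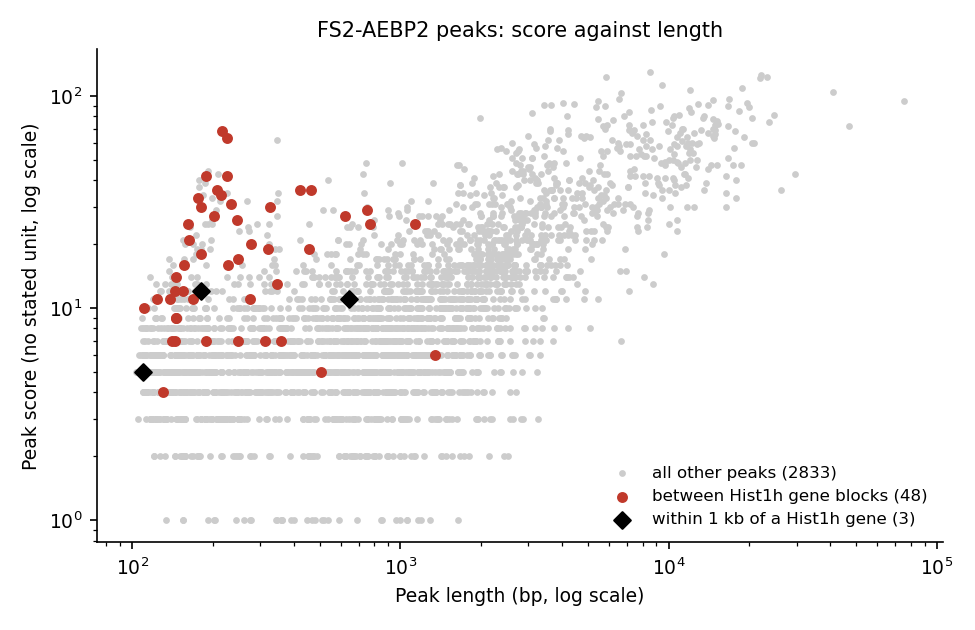
Score against length for every FS2-AEBP2 peak, both on log scales. The 48 peaks between the gene blocks (red) have a median length of 216 bp and lie to the left of most other peaks of the same score (grey), and the 3 peaks at members (diamonds) have scores of 5 to 12.

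Few of the FS2-AEBP2 peaks in the gaps coincided with H3K27me3. Of the 48, 2 overlapped an H3K27me3 peak of replicate 1 and 3 one of replicate 2, or 4.17% and 6.25%, whereas 82.8% and 82.4% of the whole FS2-AEBP2 list did. These were the peak of 1347 bp at chr13:23377180-23378526, that of 146 bp at chr13:23487724-23487869, and, for replicate 2, that of 207 bp at chr13:23555283-23555489. AEBP2 replicate 1 overlapped 7 of the 48 and replicate 2 overlapped 21, or 14.6% and 43.8%, against 59.0% and 80.8% over the list. Seen from the other side, in the gaps all 7 AEBP2 peaks called in replicate 1, and 21 of 23 in replicate 2 (91.3%), overlapped an FS2-AEBP2 peak, against 55.4% and 28.9% of those lists. The 5 peaks of AEBP2 replicate 1 in the gaps that overlapped replicate 2 lay between 1722 and 1785 kb from the start of Hist1h2bl. FS2-AEBP2-only peaks numbered 269 in the genome, or 9.33% of the list, of which 42 lay on chromosome 13, 25 in the gaps and 1 at a member. Without AEBP2 replicate 2, 39 of the gap peaks would be FS2-AEBP2-only.

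tRNA genes lie in the same intervals as the peaks. The order of genes in RefSeq (GRCm38.p6, a later build, used here for names and neighbours only) places 77 tRNA genes within the cluster, of 105 on chromosome 13 and 430 in the table. The cluster was cut at 100 protein-coding genes found in both annotations, 53 of them members, which stand in the same order in both. Of the 99 intervals between neighbours, 10 hold tRNA genes, 76 in all. These 10 intervals span 453 kb and held 48 FS2-AEBP2 peaks, 7 and 21 AEBP2 peaks and 7 and 5 H3K27me3 peaks, with a peak that spans a gene and reaches into both neighbouring intervals counted once. Among these 48 is the peak before Hist1h4h, while the gap peak that lies inside Btn1a1 falls in no interval. The other 89 intervals span 1473 kb and held 1 FS2-AEBP2 peak, 1 and 2 AEBP2 peaks and no H3K27me3 peak. At least 1 FS2-AEBP2 peak lay in 9 of the 10 intervals with tRNA genes and in 1 of the 89 without. Many of the 89 are short spaces between members. The cut into intervals was not among the planned counts, and the region was selected on its FS2-AEBP2-only peaks. These counts are therefore a description and no independent support.

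The interval from Hist1h2br to the zinc finger gene Zfp184 holds 21 tRNA genes and had 15 FS2-AEBP2 peaks. From Abt1 to the butyrophilin gene Btn1a1 there are 14 tRNA genes and 9 peaks, and from Btn2a2 to Hist1h4h 14 tRNA genes and 8 peaks. From Vmn1r223 to Zfp322a there are 9 tRNA genes and 6 peaks, from the protease gene Prss16 to Hist1h2ah 6 and 4, and from Zfp322a to Abt1 6 and 3. The interval from Pom121l2 to Prss16 holds 2 tRNA genes and had no FS2-AEBP2 peak. Between Btn1a1 and Btn2a2 there is 1 tRNA gene, n-TYgta8, a tyrosine tRNA gene, and 1 FS2-AEBP2 peak, which is peak 2 shown above. AEBP2 replicates 1 and 2 each had 1 peak in that interval as well. No member body lies in these intervals, and only those at the ends of blocks border them. Across intervals the points share 1 stretch of chromosome, and the positions of the tRNA genes themselves were not used, since the builds differ. By the amino acid letter in their names, serine with 11 genes, valine with 10 and isoleucine with 8 are the most common.

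The B box word was counted in the files' own build. GTTCGANNC, searched on both strands in the 300 bases around the centre of each peak, was chosen after the sequences of the peaks had been seen. Its counts in these peaks are therefore a description and no independent support for a link to tRNA genes. It was found in 34 of the 48 FS2-AEBP2 peaks in the gaps (70.8%), in 0 of the 3 at members and in 102 of the 2833 outside the cluster (3.60%). Of the 25 FS2-AEBP2-only peaks in the gaps 20 held it (80%), and of those outside the cluster 5.76% did. The latter were 4 of 16 on the rest of chromosome 13 (25%) and 10 of 227 on the other chromosomes (4.41%). In AEBP2 replicate 1 the word was in 5 of 7 gap peaks (71.4%) against 2.30% of the peaks outside, and in replicate 2 in 10 of 23 (43.5%) against 1.73%. None of the 7 and 9 H3K27me3 gap peaks held it in those 300 bases. These peaks are longer, with medians of 3590 and 2922 bp, so most of their sequence was not searched. The replicate 2 peak at chr13:23555406-23557042 holds a match outside its central 300 bases. The 0 is therefore not comparable with the shares of the short FS2-AEBP2 peaks. Of the 387871 successive windows of 300 bases on chromosome 13, 1.15% held the word, and of the 6159 in the gaps 1.64% did. It was in 1.17% of all protein-coding promoters of 300 bases and in 0 of the 55 member promoters. A longer form of the word, with a further G before it and a further C after it, was found in 31 of the 48 FS2-AEBP2 gap peaks, in 5 and 9 of the AEBP2 gap peaks, and in 0.812% of the windows of the gaps. So within the gaps both the tagged and the endogenous protein had peaks with the word. The peaks at members, 3 for FS2-AEBP2 and 2 for each AEBP2 replicate, held none. They are too few to be told apart from the shares of 3.60%, 2.30% and 1.73% outside the cluster. The 0 of 55 member promoters is likewise close to the 1.17% of all promoters.

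Taken from the side of the sequence, the gaps hold 104 matches of the word, with a palindromic place counted on each strand. An FS2-AEBP2 peak lay within 150 bp of 39 of them, a peak of AEBP2 replicate 1 at 8, of AEBP2 replicate 2 at 16, and of any AEBP2 list at 41. H3K27me3 peaks lay at 0 and 3. Over these 39 matches the centre of the FS2-AEBP2 peak stood at a median of -45 bp from the word in the word's own direction. The quartiles were -71.5 and 15.5 bp, with negative values upstream, and at 27 of the 39 matches the centre was upstream. A peak near more than 1 match enters once for each, as do those at chr13:23592412-23593033 and chr13:23609000-23610134. The 39 values are thus not separate peaks.

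**Figure D4:**
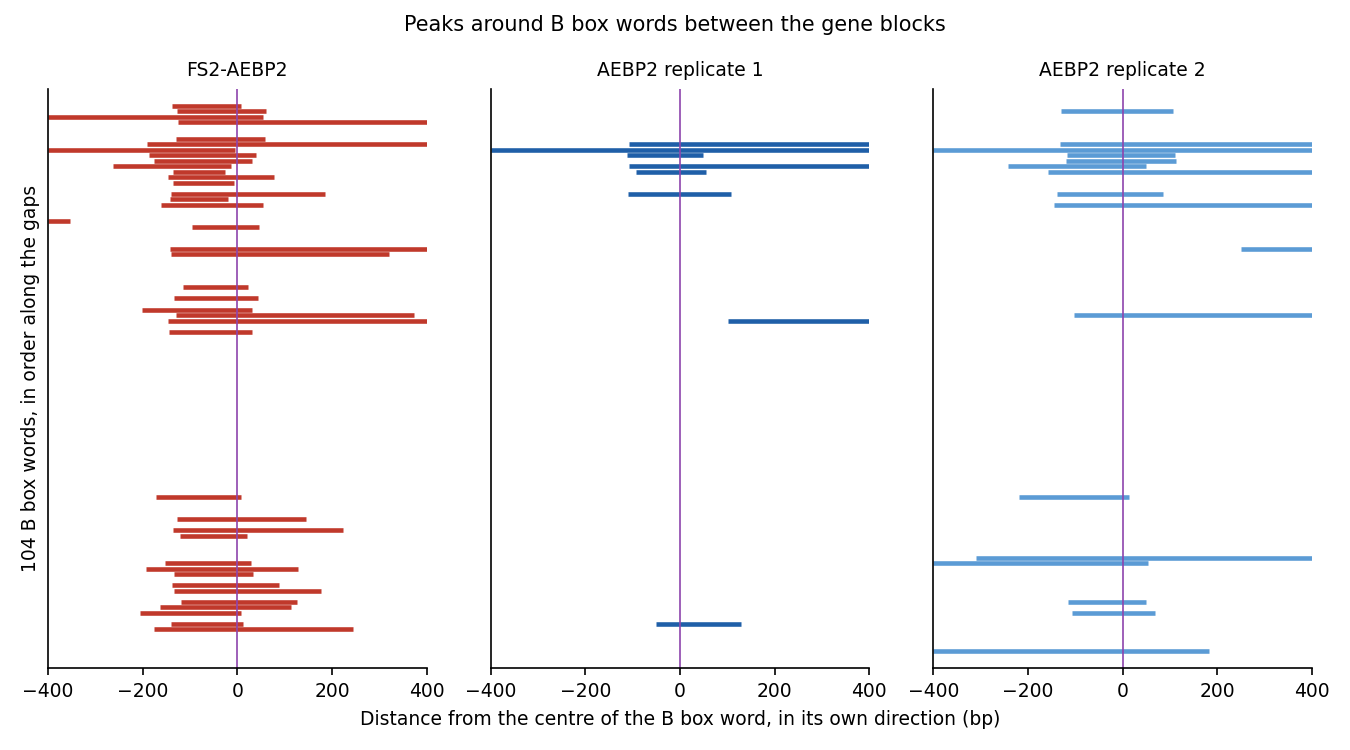
FS2-AEBP2 peaks (left) and AEBP2 peaks (replicate 1, middle, and replicate 2, right) around each of the 104 matches of the B box word in the gaps, 1 line per match, turned so that the word reads left to right. The horizontal axis is the distance from the centre of the word in bp, and peaks that run on are cut at the edges. FS2-AEBP2 peaks lie within 150 bp of 39 of the words, and the endogenous AEBP2 peaks of 8 and 16.

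Promoters of the members share features that the choice of genes did not use. In the 300 bases from 250 before to 50 after the start, CCAAT was found in 46 of 55 members (83.6%, against 37.9% of all protein-coding promoters) and TATAAA in 31 (56.4% against 13.4%). ATTTGCAT, the octamer that OCT1 binds in H2B promoters, was in 11 (20% against 1.73%), of which 6 were H2B and 5 H2A genes. AAACACA was in 10 (18.2% against 6.42%), among them 5 of the 6 H1 genes. All words were searched on both strands, so an H2A and an H2B gene that share a start region can count the same match. CCAAT was in all H1, H2A and H2B genes, in 8 of 9 H3 genes and in 3 of 11 H4 genes. The members' GC content was 45.7% by median (33.3% to 60.7%) against 55% for all promoters, and the ratio of observed to expected CpG was 0.715 against 0.534. Of the members with a peak near the start, Hist1h4h was the only one with none of the 4 words.

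Many members are near copies of each other, which bears on how reads align. Of the 50-base words in a member's start-site window, a median of 24.4% (0 to 100%) occur elsewhere in mm9, against 0% for the other promoters of chromosome 13, and in gene bodies the median was 49.5%. In the bodies of 26 members at least 50% of the words were repeated. The windows of Hist1h2bq, Hist1h2ao, Hist1h2ap and Hist1h2br were repeated throughout, and those of Hist1h4m and Hist1h4n at 93.0% and 92.0%, and none of these 6 had a peak. With words of 36 bases the median of the windows was 25.7%. The read length and the treatment of reads that align to several places were not given in the sources used here, and the part of repeated sequence in the low number of peaks was not tested. Members with little repeated sequence include some with a peak and some without: Hist1h1b at 0% had peaks, and Hist1h1a, Hist1h1t and Hist1h2be at 0% had none. The FS2-AEBP2 peaks in the gaps had a median of 6.38% and a highest value of 25.2%, and the other 146 FS2-AEBP2 peaks of chromosome 13, outside the cluster, a median of 0% and a highest value of 26.8%. The part of repeated sequence in the peaks of the gaps was not tested either.

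**Figure D5:**
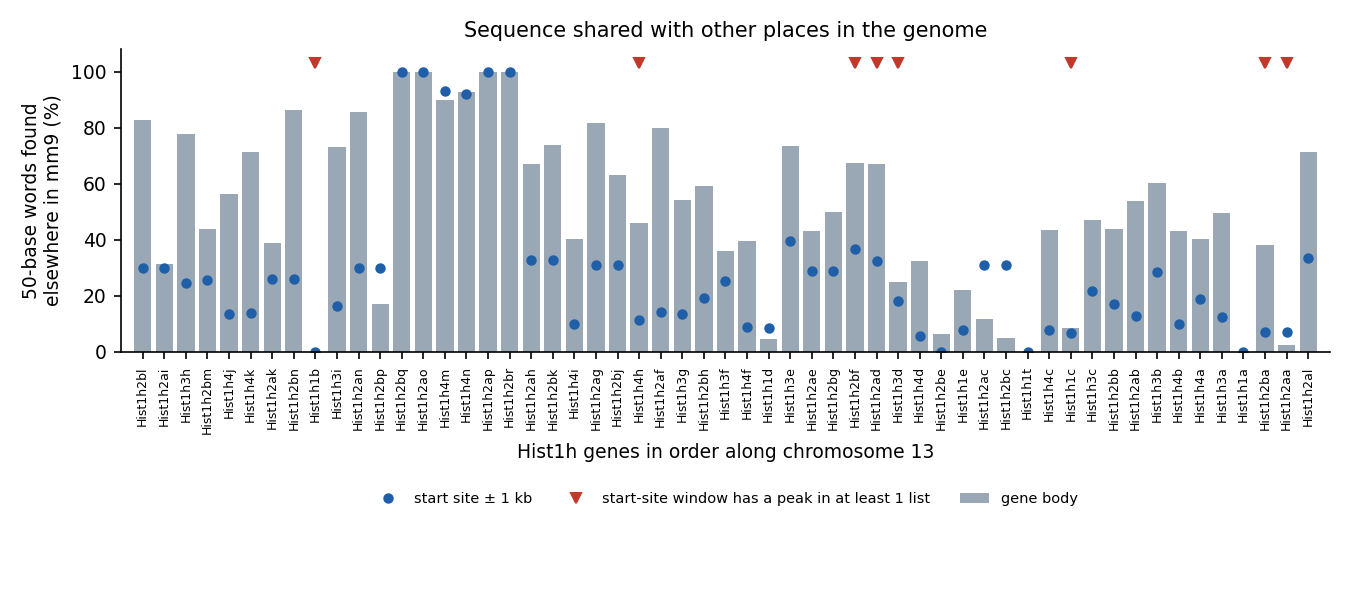
Percent of 50-base words that also occur elsewhere in mm9, for the body (bars) and the start-site window (points) of each of the 55 members in their order on chromosome 13, with triangles over the 8 members whose window has a peak. Windows range from 0 to 100%, the 6 highest are in the first block, and the triangles sit over windows at 36.8% or lower.

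Distances to the nearest peak show where the members stand in the region. From a member's start the nearest FS2-AEBP2 peak was at a median of 23649 bp, where for all 866 protein-coding genes of chromosome 13 it was at 347842 bp. The cluster was selected for its dense FS2-AEBP2-only peaks and holds 54 of the 55 members. A short distance to FS2-AEBP2 is thus tied to that choice. For AEBP2 the medians were 34342 bp and 22011 bp in replicates 1 and 2, against 237303 bp and 91607.5 bp. For H3K27me3 they were 172216 bp and 86359 bp, against 122256 bp and 102928 bp. For FS2-AEBP2 the members just outside the window were Hist1h2af at 3470 bp and Hist1h3i at 3594 bp. For AEBP2 replicate 1 they were Hist1h3d at 1318 bp and Hist1h2bg at 2804 bp, and for replicate 2 Hist1h2bg at 2817 bp and Hist1h2ae at 2993 bp. For H3K27me3 the nearest were farther, Hist1h2ah at 20658 bp in replicate 1 and Hist1h4c at 9029 bp in replicate 2. Hist1h2bl, the first member, had a peak of each of the 3 AEBP2 lists at 5050, 4981 and 4930 bp, beyond the outer end of the cluster.

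Few of the clustered histone genes elsewhere had a peak in their start-site window. Of the 12 genes of histone clusters 2, 3 and 4, Hist4h4 on chromosome 6 had a peak of FS2-AEBP2 and of AEBP2 replicate 2, and the others had none in any list. That is 8.33% with a peak of any list, against 31.5% of all genes. Of 10 genes listed as replication-independent histones, 5 had a peak of AEBP2 replicate 2 (H3f3a, H2afz, Cenpa, H1fx and H2afx). That is 50% (23.7 to 76.3), against 22.3% of all genes, and none had a peak of another list. Of 12 genes for histone transcription and mRNA processing, Cpsf3, the endonuclease that cleaves histone mRNA, had a peak of both AEBP2 replicates. Slbp, which encodes the stem-loop binding protein, had one of replicate 2. Npat, the coactivator of histone genes, had none. The shares of these 12 genes were 8.33% for both AEBP2 replicates and 16.7% for replicate 2, near the 8.44% and 22.3% of all genes. None of the 34 genes had an H3K27me3 peak in that window, where 19.8% of all genes had one in either replicate.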

How the data were processed

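Peaks were called by the authors in each sample of mESCs and deposited as 5 lists with a start, an end and a whole-number score per peak, whose scale is not stated. Per the labels the authors used Bowtie, SAMtools, Picard and MACS2 2.0.10.2 with mm9, and the thresholds are not given in the sources used here. Deposited scores were ranked only within a list, in percent, with tied scores at their mean rank. Outside chromosomes 1 to 19, X and Y lay 2 peaks of AEBP2 replicate 1 and 13 of H3K27me3 replicate 2, which were left out. An overlap was at least 1 bp. A gene's start was the outer 5′ end of its GENCODE vM1 record. CpG-island-like stretches were windows of 500 bp, taken every 10 bp, with at least 55% GC and a CpG ratio of at least 0.65. They had to overlap or adjoin the start-site window. Members and lists were chosen with earlier results of these data known. Every member was counted, those with a peak were named with values, the others by name only, and other genes only from fixed lists. Overlap and repeat counts were tested on simulated data. Work was done in Python 3.11.15 (pandas 2.3.3, numpy 2.4.6, numba 0.67.0, pysam 0.24.0, scipy 1.17.1, matplotlib 3.10.9), with samtools 1.23.1.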

Additional observations from a re-analysis of the deposited data

How the results depend on the processing

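Of 134 alternatives over 33 counts, 111 stayed within 1.5 times the reported count and 23 moved. With start-site windows of 500 bp on either side, or an overlap of at least 500 bp, the members with an FS2-AEBP2 peak went from 3 to 0, and with the latter those of AEBP2 replicate 1 went to 1 and those of H3K27me3 replicate 1 to 0. Where a peak had to cover at least 50% of the gene body, FS2-AEBP2 had 0 members and AEBP2 replicate 1 had 1. With only peaks scored at or above their list's median, AEBP2 replicates 1 and 2 each had 1 gene body and 1 peak at members, H3K27me3 replicate 2 had 0 start-site windows, 0 gene bodies, 0 peaks at members and 0 between members inside blocks, FS2-AEBP2-only peaks numbered 115 in the genome and 2 at members, and gap peaks numbered 3 and 13 for AEBP2 and 4 for H3K27me3 replicate 1. Chosen after the data had been seen were, for the gaps, this last setting, the joining of blocks within 50 kb and that of peaks within 1 kb, and beside them the settings of the B box word and the count without the 6 members with repeated windows. FS2-AEBP2-only peaks at members ranged from 1 to 2 and in the gaps from 25 to 39 when each other list was left out in turn, with the 39 and a 2 without AEBP2 replicate 2 and the other 2 without AEBP2 replicate 1. Without AEBP2 replicate 1, the members counted for both replicates rose from 2 to 4, since replicate 2 is then counted alone. The 48 FS2-AEBP2 gap peaks were 39 to 48 under the 3 alternatives run, and the 34 with the B box word were 31 and 33. No paired analysis was possible because the counts come from no test and FS2-AEBP2 has 1 sample. Depth is unknown, so a list with fewer peaks may be a shallower one, and numbers of peaks cannot be compared between lists as amounts of binding.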
